A study of Mus musculus with 16 samples.

Results

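The major urinary proteins (MUPs) are small secreted lipocalins encoded by a cluster of near-identical genes, and 9 of these genes, Mup1, Mup3, Mup7, Mup10, Mup11, Mup17, Mup19, Mup20 and Mup21, were followed by their symbols in the liver RNA of 16 mice. The 9 genes were among the 50559 symbols of the gene table and among 45 symbols of the Mup family, of which 22 were genes and 23 pseudogenes. The rule that names them uses their symbols and no measured value, although it was written with earlier results of these data known. All 9 passed the filter on low counts that left 18335 genes for testing. Of the 9, Mup20 was lower in mice on a high-fat diet than in lean controls, and Mup3 was lower when mice on that diet received the inhibitor of ketohexokinase (KHK). The other 7 did not pass the test in either of these comparisons, and most of them differed widely between mice of the same group.

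MUPs are made in the liver of adult male mice in very large amounts, are released into the blood, and leave the body in the urine, where their barrel-shaped pocket carries and slowly releases small volatile pheromones. Transcription of the genes in hepatocytes follows the pulsatile growth hormone (GH) secretion of males, which acts through the GH receptor, JAK2 and the transcription factor STAT5b, and it also responds to glucocorticoids, thyroid hormone and androgens. MUP20, also called darcin, is itself a male pheromone that attracts females. KHK, the first enzyme of fructose breakdown, phosphorylates fructose to fructose 1-phosphate.

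Each group held 4 livers from male C57BL/6J mice that were 6 weeks old at the start and were fed for 10 weeks, with treatment over the last 4 weeks. The LFD group (chow in the labels) and the HFD group (a 60% high-fat diet) were the controls. They were injected every 2 weeks with an siRNA against luciferase, at 10 mg/kg, and gavaged with methylcellulose, the vehicle. HFD + siRNA mice ate the same fatty diet and were injected with an siRNA against Khk at 20 mg/kg, coupled to GalNAc, a sugar that hepatocytes take up, and were gavaged with the vehicle. HFD + Inhib mice, also on the fatty diet, had luciferase siRNA injections and were gavaged 2 times a day with PF-06835919, a KHK inhibitor, at 15 mg/kg. In the study's methods some mice were given saline and some insulin shortly before tissue collection, and which library came from which was not given in the sources used here. Library totals ranged from 24317111 to 35820234 expected counts, and levels are given as CPM (counts relative to the library total, after TMM scaling), as mean ± SD of 4 libraries.

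Khk, the target of the siRNA, followed the labels. The counts of Khk were 5102, 6504, 11695 and 8152 in the LFD libraries and 7564, 12554, 6135 and 6410 under HFD. With the siRNA they were 374, 251, 520 and 393, and with the inhibitor 3161, 3910, 2921 and 4018. The 4 HFD + siRNA libraries were below all others. Khk was lower in HFD + siRNA than in HFD (log2 fold change -4.38 ± 0.23 SE) and also lower in HFD + Inhib than in HFD (-1.14 ± 0.20), with adjusted p = 1.88e-08 and 0.000752 by edgeR's quasi-likelihood test.

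The tissue had the markers of liver. Of the hepatocyte markers, all 7 of 7 were detected in every group, and albumin (Alb) was the most abundant of them. Their summed level was 86714 ± 7312 CPM in LFD, 76438 ± 6790 in HFD, 81855 ± 5186 with the siRNA and 51385 ± 1715 with the inhibitor, so this sum, in which Alb weighs most, was lowest in HFD + Inhib with no overlap with the other groups. The adipocyte markers summed to at most 1.03 CPM and the exocrine pancreas markers to at most 0.725 CPM in any library.

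Whether a read can be given to one MUP gene depends on how much sequence it shares with the others. Of the 50-base words in the GENCODE M21 transcripts of Mup3, 86.7% occurred in no other gene, against 80.7% for Mup21, 49.5% for Mup20, 38.4% for Mup1, 23.5% for Mup10, 22.2% for Mup11, 21.9% for Mup17, 13.3% for Mup7 and 0% for Mup19. Words were pooled over all transcripts of a gene, 4 each for Mup1 and Mup11 but 1 each for Mup17, Mup20 and Mup21. The percentages are therefore not fully comparable between genes. Nearly all of the shared words of Mup20 were in the pseudogene Mup-ps19 (48.0% of its words), whereas Mup19 shared 83.0% of its words with Mup9 and 76.1% with Mup11. Mup3 and Mup21 shared words mainly with each other. RSEM divides reads that match several genes, so the values of all 9 depend on that division to some degree and are uncertain for that reason. Those of Mup3 and Mup21 do so over the smallest part of their sequence, and those of Mup20 over about as much sequence as it has of its own. Mup-ps19 was given at most 14.5 CPM in any library, against at least 1120 CPM for Mup20, and these levels also come from that division.

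The genes lie in 1 cluster on chromosome 4, where 44 Mup symbols spanned positions 59956804 to 62150841 of GRCm38.p6 in the RefSeq table. Mup7 (60066469 to 60070475), Mup1 (60498012 to 60501960), Mup10 (60578260 to 60582276), Mup11 (60658466 to 60662432), Mup17 (61591929 to 61595865) and Mup19 (61778324 to 61782355) occupied its body, and Mup20 (62011337 to 62054143), Mup3 (62083476 to 62087317) and Mup21 (62147832 to 62150841) lay at its far end. The 3 genes at the far end are also those with the most sequence of their own. The RefSeq promoter table held 7 of the 9 genes, all but Mup1 and Mup20. The 250 bases before the start of 4 of them are printed because they set the genes with sequence of their own (Mup3, Mup21) beside near-identical ones (Mup10, Mup19). They are in GRCm38.p6, all on the minus strand and written 5′ to 3′ on that strand, at chr4:62087318-62087567 for Mup3, chr4:62150842-62151091 for Mup21, chr4:60582156-60582405 for Mup10 and chr4:61782225-61782474 for Mup19. For Mup10, Mup11, Mup17 and Mup19 the start in the promoter table lies inside the gene span given above, so the windows do not begin at the same point of each gene. Capitals mark the longest run made only of A and C (in Mup3 and Mup21 the last of a pair of equally long runs), and the letters TATATAA.
Mup3: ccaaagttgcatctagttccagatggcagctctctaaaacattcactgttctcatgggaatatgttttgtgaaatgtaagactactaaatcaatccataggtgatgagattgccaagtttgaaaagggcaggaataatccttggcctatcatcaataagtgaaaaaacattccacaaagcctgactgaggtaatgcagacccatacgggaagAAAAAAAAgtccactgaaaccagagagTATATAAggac
Mup21: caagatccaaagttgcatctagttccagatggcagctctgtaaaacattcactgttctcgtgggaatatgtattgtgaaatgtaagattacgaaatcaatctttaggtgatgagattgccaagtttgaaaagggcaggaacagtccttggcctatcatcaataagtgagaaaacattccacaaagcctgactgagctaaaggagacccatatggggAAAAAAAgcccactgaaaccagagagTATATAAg
Mup10: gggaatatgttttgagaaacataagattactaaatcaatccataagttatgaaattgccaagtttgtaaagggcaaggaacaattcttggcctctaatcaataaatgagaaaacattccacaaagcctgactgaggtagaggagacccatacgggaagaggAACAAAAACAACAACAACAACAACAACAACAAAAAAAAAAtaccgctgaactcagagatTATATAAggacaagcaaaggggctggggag
Mup19: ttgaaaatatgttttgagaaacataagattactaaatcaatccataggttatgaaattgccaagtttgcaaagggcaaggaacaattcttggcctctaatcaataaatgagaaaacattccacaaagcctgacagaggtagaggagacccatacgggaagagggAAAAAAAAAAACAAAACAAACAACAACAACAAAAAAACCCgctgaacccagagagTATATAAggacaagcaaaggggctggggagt

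The run of A and C was 40 bases long in Mup10 and in Mup19, 42 in Mup11 and in Mup17, 9 in Mup7, 8 in Mup3 and 7 in Mup21. The Mup7 window ended before the stretch that holds the run in Mup10, Mup11, Mup17 and Mup19. Its run of 9 bases therefore comes from another part of the sequence and cannot be compared with theirs. The letters TATATAA, a variant of the TATA box that was added after the sequences were seen, stood in 5 of the 7 windows (Mup3, Mup10, Mup17, Mup19 and Mup21). They stood in 3.04% of the 32851 windows of the same length in the table. The Mup11 window ended at the point where these letters begin in Mup17 and Mup19, and the Mup7 window ended before it. Whether Mup7 and Mup11 have the letters there cannot be read from these windows. Of the other motifs searched on both strands with overlaps allowed, the STAT motif TTCNNNGAA was in 0 of the 7 windows (7.02% of all windows), TATAAA in 0 (12.4%), the nuclear receptor core AGGTCA in 0 (14%), the steroid receptor core TGTTCT in 2 (Mup3 and Mup21; 16.1%) and CCAAT in 3 (Mup7, Mup11 and Mup17; 33.8%). Such a match is a description of the letters in these windows only.

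Taken per kilobase of the longest transcript, so that genes can be compared, Mup7 (4270 CPM per kb over the 16 libraries), Mup19 (3552), Mup3 (3284) and Mup20 (2619) carried most of the signal of the 9 genes. Mup11 (884), Mup10 (808), Mup17 (386), Mup1 (244) and Mup21 (100.6) followed. The order differed between groups. Of the 9 genes, Mup3 came first in LFD (4478 CPM per kb) and HFD (3870), Mup7 in HFD + siRNA (7191) and Mup19 in HFD + Inhib (4543). Mup10 was above Mup11 in HFD (1563 against 413) and HFD + Inhib (1425 against 746). Among the other members of the family, Mup22 (8946 CPM per kb) was the most abundant of all Mup symbols and shared 92.9% of its words with Mup10.

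**Figure D1:**
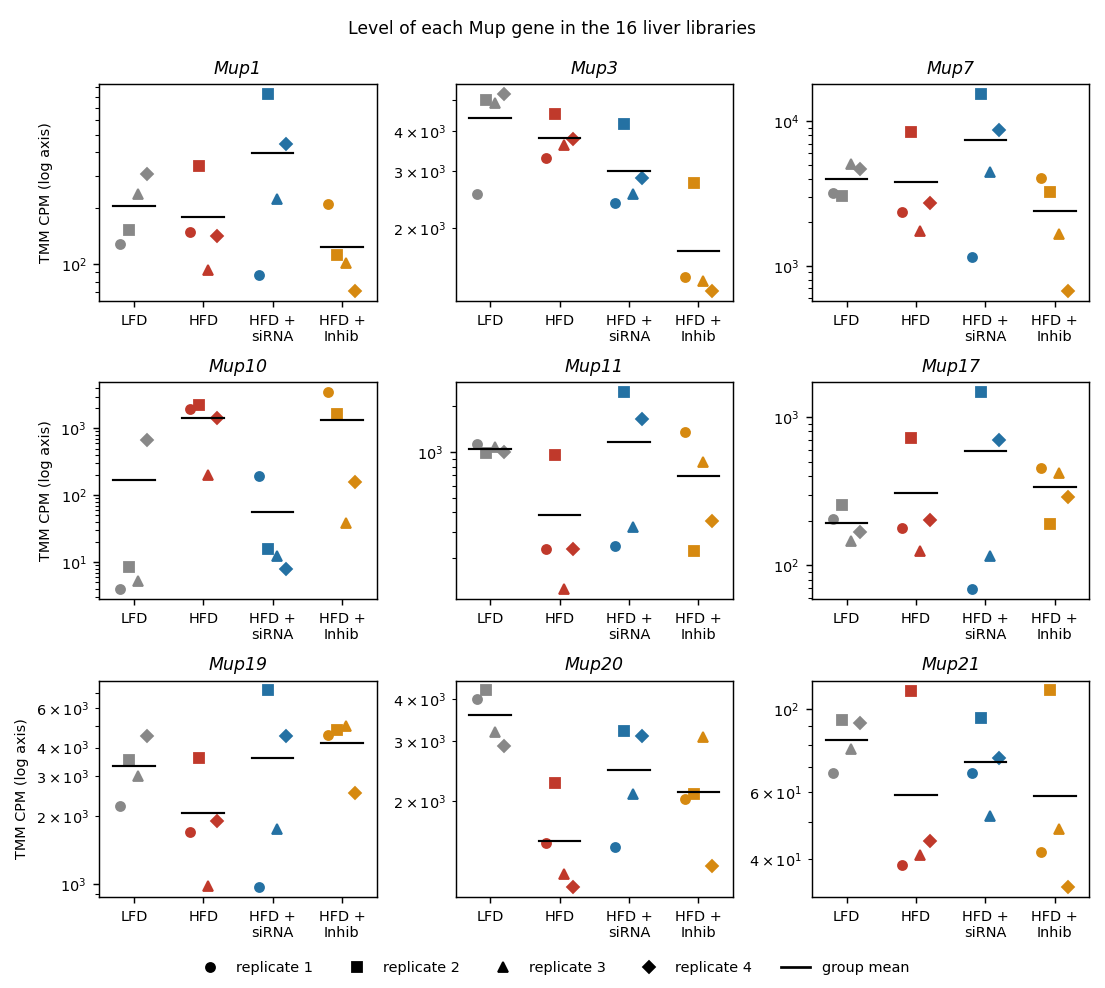
Level of each of the 9 genes in CPM (log axis) in the 4 libraries of each group, with a line at the group mean and a marker shape for each replicate number. Mup3 and Mup20 varied at most 2.17-fold and 2.39-fold within a group, while Mup10 ranged from 3.94 to 3466 CPM, and HFD replicate 2 was the highest HFD library for all 9 genes.

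Mup3 had mean levels in the descending order LFD (4407 ± 1244 CPM), HFD (3808 ± 519), HFD + siRNA (3007 ± 828) and HFD + Inhib (1703 ± 705). In LFD the 4 libraries had 2552, 4991, 4879 and 5205 CPM, in HFD 3305, 4531, 3629 and 3768, in HFD + siRNA 2398, 4214, 2549 and 2865, and in HFD + Inhib 1408, 2757, 1372 and 1273. LFD replicate 1 was far below its group, and HFD + Inhib replicate 2 far above its own. Of the neighbours in this order, only HFD + siRNA and HFD + Inhib passed the test (adjusted p = 0.0243, edgeR), while LFD and HFD (adjusted p = 0.62) and HFD and HFD + siRNA (0.437) did not. The values of HFD + siRNA and HFD + Inhib overlapped, and 4 of 17 alternatives lost the call, at log2 fold changes from -0.73 to -0.60.

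Mup20 was highest in LFD (3582 ± 637 CPM), followed by HFD + siRNA (2478 ± 838), HFD + Inhib (2130 ± 740) and HFD (1530 ± 515). The libraries had 4005, 4232, 3189 and 2902 CPM in LFD, 1510, 2261, 1228 and 1120 in HFD, 1473, 3226, 2104 and 3111 in HFD + siRNA, while HFD + Inhib had 2027, 2099, 3097 and 1297. All 4 LFD libraries were above all 4 HFD libraries, whereas both treated groups overlapped LFD and HFD. No neighbours in this order differed beyond their spread by edgeR.

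Mup10 spanned the widest range of the 9. It had 1942, 2230, 201 and 1424 CPM in the HFD libraries and 3466, 1624, 38.9 and 156 in those of HFD + Inhib, against 3.94, 8.35, 5.26 and 661 in LFD and 193, 15.8, 12.3 and 7.999 in HFD + siRNA. The HFD libraries were all above the HFD + siRNA libraries, by a small margin, and LFD replicate 4 stood far above the rest of its group. Neighbours in the order HFD (1449 ± 897), HFD + Inhib (1321 ± 1602), LFD (170 ± 328) and HFD + siRNA (57.2 ± 90.4) did not differ beyond their spread.

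Mup1, Mup7, Mup11 and Mup17 were on average highest in HFD + siRNA, with large spreads. Mup1 averaged 206 ± 81.4 CPM in LFD, 180 ± 108 in HFD, 395 ± 323 with the siRNA and 123 ± 60.4 with the inhibitor. Mup7 averaged 3987 ± 1027, 3823 ± 3134, 7429 ± 6148 and 2403 ± 1528 CPM in the same order of groups, and its 4 HFD + siRNA libraries had 1149, 15383, 4435 and 8747. Replicates 2 and 4 of HFD + siRNA were the higher ones for all 4 of these genes.

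Mup11 had 1048 ± 65.1 CPM in LFD, with 1124, 987, 1080 and 1001 in the libraries, and 384 ± 379 in HFD, with 230, 948, 126 and 231. The LFD libraries were all above the HFD libraries, although HFD replicate 2 came close to them. The mean of Mup11 was 1162 ± 1072 CPM in HFD + siRNA and 694 ± 512 in HFD + Inhib, and the values overlapped those of both other groups.

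Mup17 was at 193 ± 46.9 CPM in LFD, 307 ± 280 in HFD, 589 ± 653 with the siRNA and 340 ± 123 with the inhibitor. For Mup19 the means were 3309 ± 973, 2048 ± 1118, 3601 ± 2821 and 4211 ± 1140 CPM, and for Mup21 they were 82.6 ± 12.1, 58.9 ± 35.2, 72.0 ± 17.6 and 58.8 ± 35.9. Over the 16 libraries Mup21 was the least abundant of the 9, although Mup10 was lower in HFD + siRNA (57.2 ± 90.4 CPM). No neighbours in the order of the group means of Mup1, Mup7, Mup11, Mup17, Mup19 or Mup21 differed beyond their spread by edgeR.

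The comparison of HFD with LFD asks what the fatty diet did to the family. Of the 9 genes, 1 fell and 0 rose at an adjusted p under 0.05, against 8.8% of all tested genes lower and 9.58% higher. The gene that fell was Mup20 (log2 fold change -1.23 ± 0.29, 2.34-fold lower, adjusted p = 0.00835, edgeR). It stayed past the threshold in each alternative analysis. The summed hepatocyte markers were lower in every HFD library (at most 80679 CPM) than in any LFD library (at least 81556), with 1 of the 7 passing as lower. The summed stellate cell markers, most abundant in Reln, were at 363 ± 35.9 CPM in HFD and 293 ± 29.8 in LFD with no overlap, and 1 of the 5 passed as higher. Likewise 1 of 5 cholangiocyte and 1 of 5 lymphocyte markers passed as higher, with sums that overlapped. Of the Kupffer cell and macrophage markers and of the endothelial cell markers, 0 passed. The part of these markers in the change of Mup20 was not tested. The 8 other genes had log2 fold changes between -1.45 ± 0.72 (Mup11, adjusted p = 0.177) and 3.09 ± 1.63 (Mup10, adjusted p = 0.2), and the median of the 9 was -0.21 against -0.01 over all tested genes. When HFD replicate 2 was left out, 3 of the 9 genes passed as lower (Mup11, Mup20 and Mup21), and without LFD replicate 4 Mup10 passed as higher (log2 fold change 7.96, adjusted p = 0.00609).

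The comparison of HFD + siRNA with HFD asks what the siRNA against Khk did. None of the 9 genes passed the test in edgeR (0 higher, 0 lower), against 5.2% of all tested genes higher and 6.55% lower. At an unadjusted p under 0.05 there were 3, Mup10 (log2 fold change -4.66 ± 1.76, adjusted p = 0.0956), Mup11 (1.60 ± 0.73, adjusted p = 0.169) and Mup20 (0.70 ± 0.28, adjusted p = 0.121), and DESeq2 called 1, Mup10. Mup10 was also called lower when only the groups compared were fitted. Without HFD replicate 2, Mup11 (2.57, adjusted p = 0.0388) and Mup20 (0.95, adjusted p = 0.0472) passed as higher. Without HFD + siRNA replicate 2, the highest of its group for 8 of the 9, Mup11 was at 0.91 (adjusted p = 0.463) and Mup20 at 0.52 (adjusted p = 0.289). Without HFD + siRNA replicate 1, the highest of its group for Mup10, Mup10 was at -6.93 (adjusted p = 0.0526). The median of the 9 log2 fold changes was 0.81, against 0.02 over all tested genes, and it was 0.22 without HFD + siRNA replicate 2.

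The comparison of HFD + Inhib with HFD asks what the inhibitor did, in livers where the Khk transcript was lower as well. Of the 9 genes, 1 fell and 0 rose, against 8.42% of all tested genes lower and 9.8% higher. Mup3 fell by 1.16 on the log2 scale (SE 0.27, 2.24-fold lower, adjusted p = 0.00588, edgeR), with no overlap between the groups, and it passed the threshold in each alternative analysis. Mup19 had a log2 fold change of 1.04 ± 0.49 (adjusted p = 0.162) and Mup20 of 0.48 ± 0.28 (adjusted p = 0.27), and the median of the 9 was -0.01 against 0.00 over all tested genes. Some hepatocyte markers also fell, with Alb at -0.77 ± 0.13 (adjusted p = 0.000761) and transthyretin (Ttr), a carrier of thyroid hormone, at -0.93 ± 0.12 (adjusted p = 5.55e-05), and 3 of the 7 hepatocyte markers fell and 0 rose. Of 5 markers each, 1 of Kupffer cells and macrophages, 1 of stellate cells and 2 of lymphocytes fell, 1 of endothelial cells rose, and 0 of cholangiocytes passed. The part of these markers in the change of Mup3 was not tested, and in whole tissue fewer hepatocytes and less RNA per hepatocyte cannot be told apart.

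Set directly against each other, HFD + Inhib and HFD + siRNA differed in 2 of the 9 genes, both lower in HFD + Inhib, against 16.6% of all tested genes lower and 17.3% higher. Mup1 was lower by 1.68 ± 0.55 on the log2 scale (adjusted p = 0.0272, edgeR) and Mup3 by 0.82 ± 0.26 (adjusted p = 0.0243). The Mup1 values were 210, 112, 100 and 71.0 CPM in HFD + Inhib and 87.4, 827, 223 and 443 in HFD + siRNA, so the groups overlapped, as they did for Mup3. Marker sums were also lower in HFD + Inhib than in HFD + siRNA with no overlap, at 51385 against 81855 CPM for hepatocytes (5 of 7 markers lower), 133 against 206 for Kupffer cells and macrophages (4 of 5) and 273 against 387 for stellate cells (1 of 5), and their part in the changes of Mup1 and Mup3 was not tested. Which genes passed depended on single libraries, while Mup1 and Mup3 stayed below 0 whichever library was left out. None of the 9 passed without HFD + siRNA replicate 2 (Mup1 at -1.01 and Mup3 at -0.60) or without HFD + Inhib replicate 4 (Mup1 at -1.49 and Mup3 at -0.70). Without HFD + siRNA replicate 1 there were 4, with Mup10 (6.79, adjusted p = 0.0224) higher and Mup7 (-1.98, adjusted p = 0.0201) lower beside Mup1 and Mup3. Without HFD + siRNA replicate 4 and without HFD + Inhib replicate 2 only Mup3 was left, without HFD + Inhib replicate 1 only Mup1, and without HFD + Inhib replicate 3 only Mup10.

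Against LFD, Mup3 and Mup20 passed in the inhibitor group. In HFD + siRNA none of the 9 did (0 higher, 0 lower, against 4.75% of all tested genes higher and 3.88% lower). There was 1 gene at an unadjusted p under 0.05, Mup17 (1.61 ± 0.73, adjusted p = 0.21), and none by DESeq2. Without HFD + siRNA replicate 2 Mup17 was at 0.61 (adjusted p = 0.663). In HFD + Inhib 2 genes were lower and 0 higher, against 18.2% of all tested genes lower and 18.8% higher. They were Mup3 (-1.37 ± 0.27, 2.59-fold lower, adjusted p = 0.000893, edgeR) and Mup20 (-0.75 ± 0.28, adjusted p = 0.0475). Of the hepatocyte markers 6 of 7 were lower as well. The summed endothelial cell markers were lower too, at 249 ± 8.01 CPM in HFD + Inhib against 298 ± 26.1 in LFD, with no overlap. Those of Kupffer cells and macrophages were at 133 ± 25.9 against 183 ± 30.4, with overlap. The part of these markers in the changes of Mup3 and Mup20 was not tested. Mup20 lost its call without LFD replicate 1, 2 or 3 and without HFD + Inhib replicate 1, 2 or 4, at log2 fold changes from -0.80 to -0.57. Without LFD replicate 4 Mup10 was also called higher (7.82, adjusted p = 0.00288), and without HFD + Inhib replicate 2 Mup21 was also called lower. All comparisons with LFD use the same LFD libraries.

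**Figure D2:**
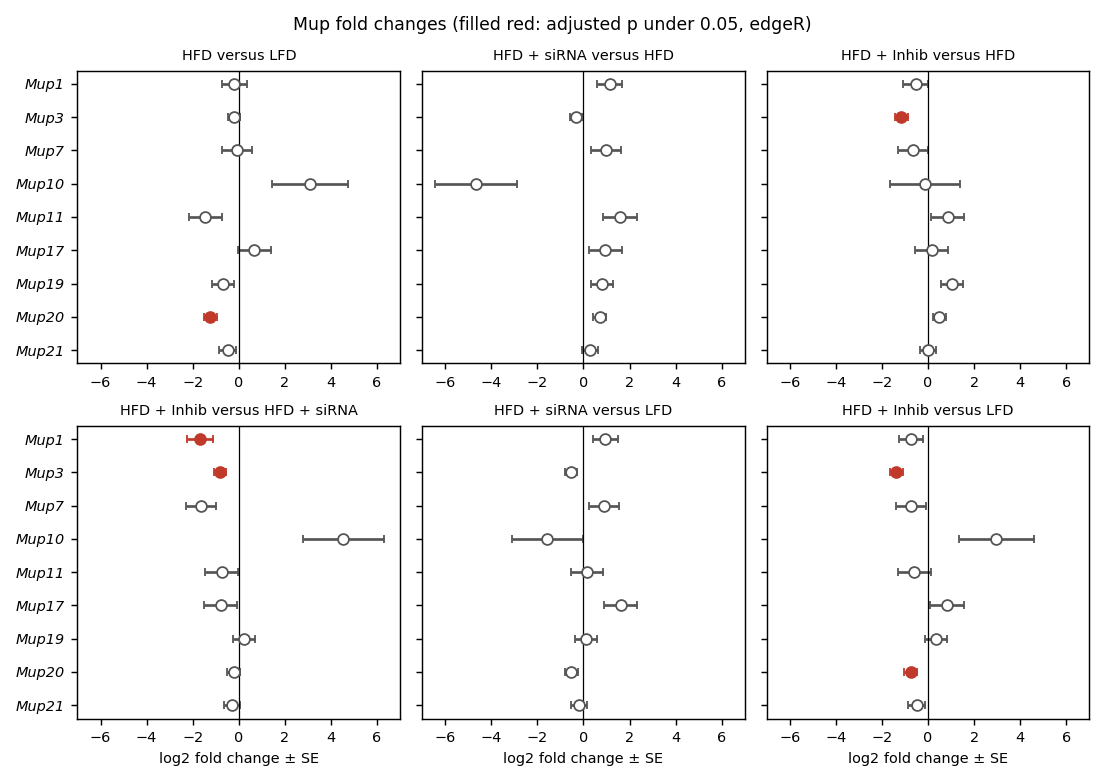
Log2 fold change ± SE of the 9 genes in the 6 comparisons, from 1 edgeR fit of 16 libraries with 4 per group; filled red points passed an adjusted p under 0.05. Mup20 passed in HFD versus LFD and in HFD + Inhib versus LFD, Mup3 in all 3 comparisons with HFD + Inhib, Mup1 in 1, and the error bars of Mup10 were the widest.

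Because reads can be shared between the genes, their summed counts were also compared. The sum of the 9 genes was 13476, 17282, 17662 and 19520 CPM in LFD, 11421, 23241, 8150 and 11538 in HFD, 6644, 34846, 11568 and 22103 in HFD + siRNA, while HFD + Inhib had 17578, 15152, 12550 and 6662. The lowest and highest libraries were both in HFD + siRNA, and the 4 groups overlapped throughout. The sum had log2 fold changes, each with an SE of 0.42, of -0.32 between HFD and LFD, 0.47 between HFD + siRNA and HFD, and -0.07 between HFD + Inhib and HFD. Those of the inhibitor group against the siRNA group and against LFD were -0.53 and -0.39, and that of the siRNA group against LFD was 0.15. Sums of several genes were given no test. That of the 9 genes turned direction with single libraries in 3 of the 6 comparisons. Without HFD + siRNA replicate 2 the sum was at -0.04 in HFD + siRNA versus HFD and at -0.35 in HFD + siRNA versus LFD, and in HFD + Inhib versus HFD + siRNA it kept its direction at -0.03. Without HFD replicate 2 it was at 0.32 in HFD + Inhib versus HFD. The summed other Mup symbols had log2 fold changes against HFD of 0.82 ± 0.23 in HFD + Inhib, with no overlap, and of 0.72 ± 0.23 in HFD + siRNA, with overlap, and of 0.10 ± 0.23 between the treated groups.

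The share of each gene in the sum is given as a description, with no test. Mup3 made up 25.5 ± 4.49% of the summed 9 genes in LFD, 31.4 ± 10.4% in HFD, 20.8 ± 11.1% with the siRNA and 14.1 ± 5.45% with the inhibitor. Mup19 had 19.2 ± 3.19%, 14.7 ± 1.95%, 17.7 ± 3.26% and 33.8 ± 6.20% in the same order of groups. Mup10 made up 0.874 ± 1.68% of the sum in LFD, 10.4 ± 6.08% in HFD, 0.772 ± 1.42% with the siRNA and 8.27 ± 8.86% with the inhibitor. Its LFD mean was carried by replicate 4, at 661 CPM against at most 8.35 in the other 3 libraries.

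**Figure D3:**
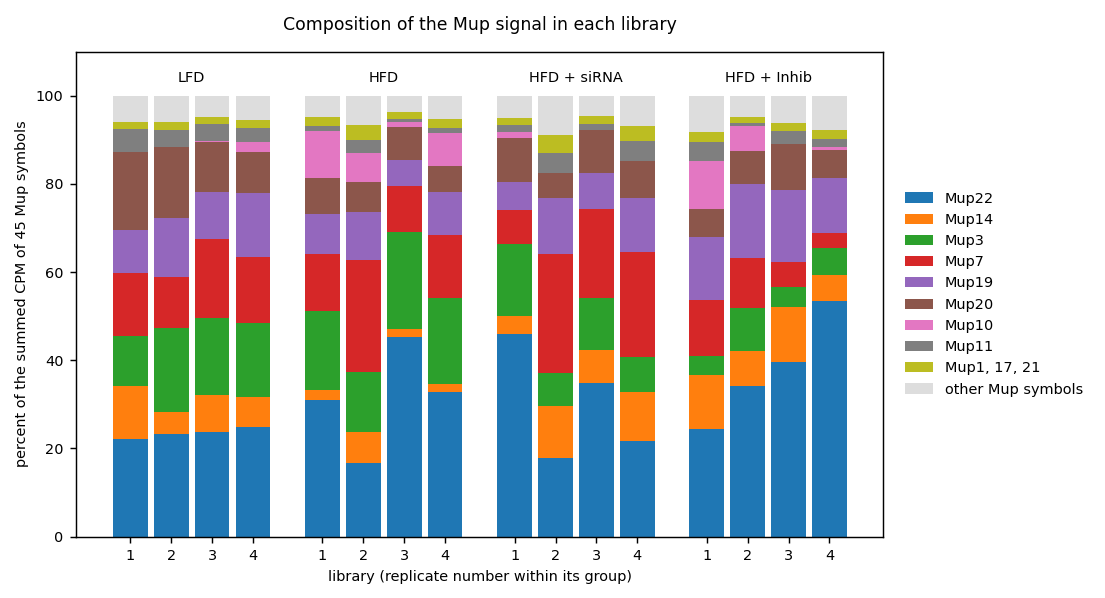
Percent of the summed CPM of the 45 Mup symbols held by each named gene in the 16 libraries; the bars of each group stand together, and the grey segment holds the remaining Mup symbols. Mup22 was the largest segment in most libraries, at 53.4% in HFD + Inhib replicate 4, and Mup7 in the other 3 (HFD replicate 2 and HFD + siRNA replicates 2 and 4).

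Livers of 1 group differed from each other more in these genes than in most others. Mup7 varied 13.4-fold between the lowest and highest HFD + siRNA libraries and Mup10 varied 168-fold between those of LFD. The pooled within-group SD on the log2 scale was 0.412 for Mup3, 0.452 for Mup20, 0.564 for Mup21, 0.823 for Mup19, 0.909 for Mup1, 1.13 for Mup7, 1.195 for Mup11, 1.23 for Mup17 and 2.64 for Mup10, against a median of 0.154 over the 2698 tested genes with at least 50 CPM. The genes with the most sequence of their own, Mup3, Mup20 and Mup21, had the smallest SDs. Own sequence and spread did not go together throughout. Mup19, with 0% of its words its own, had the next smallest SD, below Mup1 with 38.4%. Mup22, outside the 9 and also with 0%, varied at most 1.56-fold within a group. The part of the division of reads in the wider spread of genes other than Mup3, Mup20 and Mup21 was not tested. HFD replicate 2 was the highest library of its group for 9 of 9 genes and HFD + siRNA replicate 2 for 8 of 9, and HFD + siRNA replicate 1 was the lowest of its group for 7 of 9.

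**Figure D4:**
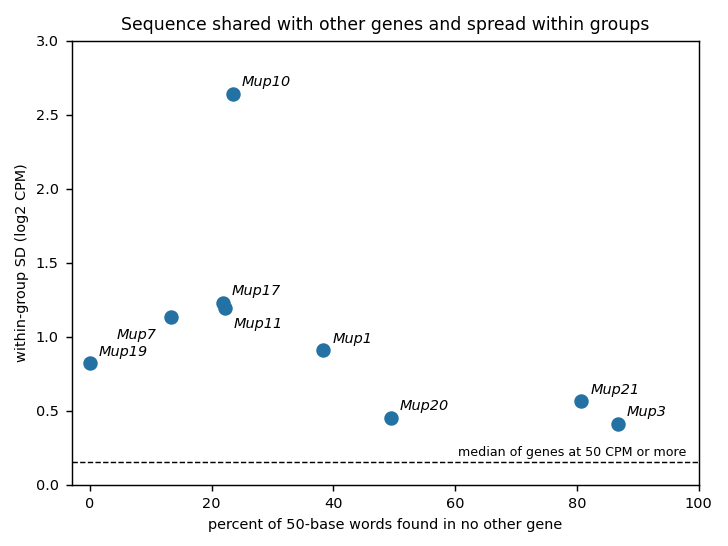
Percent of 50-base words found in no other gene (x axis) and pooled SD of log2 CPM within groups (y axis) for the 9 genes, with the median SD of genes at 50 CPM or more as a dashed line. Mup3, Mup20 and Mup21 lie lowest, at SDs from 0.412 to 0.564, and all 9 genes lie above the line. Mup19, at 0% on the x axis, lies next, at 0.823.

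Beyond the 9 genes, 12 other Mup genes and 13 Mup pseudogenes were tested. In HFD + Inhib versus HFD, 3 of the 12 genes rose and 0 fell, and 4 of the 13 pseudogenes rose and 0 fell, against 9.8% of all tested genes higher and 8.42% lower. Mup22 rose by 0.68 ± 0.17 on the log2 scale (adjusted p = 0.0101, edgeR), from 6270 ± 888 to 10063 ± 1758 CPM, Mup18 by 1.32 ± 0.43 (adjusted p = 0.0439) and Mup6 by 1.85 ± 0.39 (adjusted p = 0.00338), which had fewer than 5 CPM in every library. Mup14 (1.69 ± 0.70, adjusted p = 0.11) and Mup2 (0.72 ± 0.54, adjusted p = 0.404), the next most abundant, did not pass. In HFD versus LFD 0 of the 12 genes and 3 of the 13 pseudogenes rose, and 0 of either fell, against 9.58% of all tested genes higher and 8.8% lower. Mup22 shares all of its words with other genes, so that its level is set by the division of reads too.

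A list of 29 genes, all tested, held members of GH, thyroid hormone, glucocorticoid and insulin signalling, liver transcription factors, and genes that these hormones regulate, such as Igf1, Igfals, Dio1 and Thrsp. In HFD versus LFD 2 rose and 4 fell, against 9.58% of all tested genes higher and 8.8% lower (median log2 fold change -0.17, against -0.01 over all tested genes). The siRNA gave 0 higher and 2 lower against HFD (median 0.11, against 0.02), a count near the background of 6.55% lower. The inhibitor gave 0 higher and 6 lower (median -0.11, against 0.00), where the background was 9.8% higher and 8.42% lower. Between HFD + Inhib and HFD + siRNA 4 were higher and 9 lower with the inhibitor, against 17.3% and 16.6% of all tested genes (median -0.21, against -0.04). Stat5b, which carries the GH signal to the MUP genes, had 79.5, 98.997, 118 and 82.7 CPM in LFD, 74.2, 64.0, 64.3 and 60.1 in HFD, 77.9, 66.4, 78.1 and 83.0 in HFD + siRNA, while HFD + Inhib had 44.6, 51.1, 52.9 and 47.5. It fell in HFD versus LFD (-0.53 ± 0.12, adjusted p = 0.00641, edgeR) and fell further in HFD + Inhib versus HFD (-0.42 ± 0.12, adjusted p = 0.0192), with HFD + Inhib below all other libraries. Zhx2, a repressor of other liver genes whose loss lowers MUP expression in mice, fell in HFD versus LFD (-0.40 ± 0.07, adjusted p = 0.00202), and its fold changes in HFD + siRNA versus HFD (0.22 ± 0.07, adjusted p = 0.0681) and HFD + Inhib versus HFD (-0.11 ± 0.07, adjusted p = 0.338) did not pass. The GH receptor Ghr (0.30 ± 0.10, adjusted p = 0.0577) and the glucocorticoid receptor Nr3c1 (0.10 ± 0.09, adjusted p = 0.435) did not pass in HFD versus LFD, while the insulin-like growth factor Igf1, itself induced by GH in liver, rose there (0.58 ± 0.12, adjusted p = 0.00448).

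Other genes of male liver, which also follow GH pulses, moved in HFD versus LFD. Of 30 male-biased genes 20 fell and 1 rose (median -1.2), and of the 20 tested of 28 female-biased genes 12 rose and 1 fell (median 1.09), where 9.58% of all tested genes were higher and 8.8% lower. Hsd3b5, a male-specific steroid dehydrogenase, went from 159 ± 34.5 to 27.8 ± 22.4 CPM (log2 fold change -2.51 ± 0.71, adjusted p = 0.0224), and Cyp2b9, a female-specific cytochrome, rose by 7.61 ± 0.94 (adjusted p = 0.000109). In HFD + siRNA versus HFD 8 male-biased genes rose and 1 fell, and 0 female-biased genes rose and 6 fell, against 5.2% of all tested genes higher and 6.55% lower, with Elovl3, an enzyme that elongates fatty acids, at 1.97 ± 0.47 (adjusted p = 0.0144). In HFD + Inhib versus HFD 4 male-biased genes rose and 6 fell, and 3 female-biased genes rose and 2 fell, against 9.8% of all tested genes higher and 8.42% lower, with Hsd3b5 at -3.65 ± 0.80 (adjusted p = 0.00439) and Cyp4a12a, a fatty acid hydroxylase, at 3.29 ± 0.43 (adjusted p = 5.37e-05). Lists of other lipocalins and of plasma proteins gave 7 of 11 and 11 of 29 genes lower in HFD + Inhib versus HFD, with 0 and 1 higher, beside the same 8.42% and 9.8% of all tested genes. In HFD versus LFD these lists had 3 and 12 genes lower and 1 and 0 higher, beside 8.8% and 9.58%. Among those lipocalins, Lcn2, an acute-phase protein, fell in HFD + Inhib versus HFD (-2.06 ± 0.41, adjusted p = 0.00225, edgeR), from 7.53 ± 3.49 to 1.82 ± 0.967 CPM.

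Across the 16 libraries, the genes whose log2 CPM was most like that of the summed 9 were Cyp7b1 (Pearson r 0.789; 0.845 for deviations from group means), a male-biased oxysterol hydroxylase, Mbl1 (0.784; 0.876), a plasma lectin, Pnpla7 (0.782; 0.759), a lysophospholipase, Gm5537 (0.764; 0.799) and Ppp1r9a (0.759; 0.820). The least like were Tfap4 (-0.724; -0.762), Man1a (-0.721; -0.709) and Setbp1 (-0.719; -0.717). These are the extremes of 12382 genes in libraries that share depth and scaling, so they describe these libraries only. Cyp7b1 itself had 171, 155, 153 and 151 CPM in LFD and 86.0, 110, 67.8 and 59.6 in HFD, and it fell in that comparison (-0.96 ± 0.32, adjusted p = 0.046).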

How the data were processed

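Liver RNA of 16 mice, 4 per group by the labels, was analysed from the table of expected counts per gene symbol that the authors deposited. Per the labels the submitters' processing notes name STAR, RSEM and build mm39, while the study's methods name a probe-counting assay (HTG EdgeSeq), so which assay made the table was not settled; the annotation was not given in the sources used here. RSEM divides reads that match several genes, and this bears directly on the MUP genes. The members and gene lists were chosen with earlier results of these data known. The labels do not describe the replicates beyond their numbers, so p-values measure the spread between these samples.

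Expected counts were rounded to whole numbers, filtered with filterByExpr of edgeR (minimum count 10, minimum total 15), TMM-scaled (factors 0.929 to 1.09) and tested in 1 quasi-likelihood fit of the 16 libraries (common dispersion 0.0380), with Benjamini-Hochberg adjustment over 18335 genes and a threshold of 0.05. R 4.3.3, edgeR 4.0.16, DESeq2 1.42.0 and Python were used. The summed genes were fitted as 1 row and given without a p-value. No library pair agreed within sampling noise (chi-square per gene 20.5 to 152 within groups).

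Named genes were the 9 members, the 3 most abundant other Mup genes, Khk, up to 3 genes with the smallest adjusted p of each list or those whose role is described, and the genes most and least like the summed members; Mup18 and Mup6 and the genes of single alternatives were named after their values were seen. Alternatives were RLE size factors, DESeq2, no filter, 10 counts in every library, only the groups compared, the replicate number as a block, leaving out single libraries, library totals without Mup counts, offsets for GC content and length (86.5% of tested genes), counts rounded down and, for the sum, every Mup symbol. The fit was tested on simulated data. Sequences are from RefSeq (GRCm38.p6) and GENCODE M21, whose build differs from that of the counts, so positions are those of the tables only.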

Additional observations from a re-analysis of the deposited data

Results flagged for a closer look

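In groups of 4 libraries, a library was noted when its gap to the nearest other exceeded Dixon's 95% critical value, which chance alone gives in about 1 of 20 groups; 9 of 44 groups were noted. HFD replicate 2 was high for Mup7 (8484 CPM), Mup11 (948 CPM), Mup17 (724 CPM) and Mup21 (112 CPM), 4 of the 9 notes. Mup10 was high in LFD replicate 4 (661 CPM) and in HFD + siRNA replicate 1 (193 CPM). Mup3 was low in LFD replicate 1 (2552 CPM) and high in HFD + Inhib replicate 2 (2757 CPM). Mup19 was low in HFD + Inhib replicate 4 (2520 CPM).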

How the results depend on the processing

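In 17 alternatives per comparison, Mup20 in HFD versus LFD and Mup3 in HFD + Inhib versus HFD and versus LFD kept their direction and their call, the 3 such pairs among 6 called. No called pair changed sign, and 14 of the 48 pairs not called changed sign in at least 1 alternative. In HFD versus LFD, leaving out 1 library gave 1 to 3 called members, and in HFD + siRNA versus HFD 0 to 2. In HFD + Inhib versus HFD + siRNA the range was 0 to 4, and in HFD + Inhib versus LFD 1 to 3. In HFD + siRNA versus HFD, the fit of only the groups compared and DESeq2 gave 1 called member each. With the replicate number as a block, HFD + Inhib versus HFD + siRNA had 1 called member (Mup3; Mup1 at -1.39, adjusted p = 0.0752, edgeR) in place of 2, and HFD + Inhib versus LFD had 3 (Mup21 added as lower). HFD + Inhib versus HFD + siRNA had 3 with no filter, with at least 10 counts in every library, in the fit of only the groups compared and by DESeq2, each adding Mup10 as higher, and 3 with the offsets for GC content and length, adding Mup7 as lower. In HFD + Inhib versus LFD the fit of only the groups compared had 3, adding Mup17 as higher. Same-numbered libraries deviated from their group means with correlations from -0.132 to 0.336, not all above 0.1, so no consistent pairing by number was seen. Such correlations cannot exclude a factor shared by some same-numbered libraries, and the highest was between replicate 3 of HFD and of HFD + Inhib. The cause of the differences in calls between alternatives was not tested. The untested sum of the 9 genes also turned direction with the replicate block in HFD + Inhib versus HFD (0.06) and HFD + siRNA versus LFD (-0.02), without HFD + Inhib replicate 4 in HFD + Inhib versus HFD (0.15), and with every Mup symbol summed in HFD + Inhib versus HFD (0.34) and versus LFD (0.04). Members had from 94 to 422438 counts in a library.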
